A study of Homo sapiens with 6 samples.

Results

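The E2F transcription factor family was described by 10 genes, E2F1 to E2F8 and the dimerization partners TFDP1 and TFDP2, in fusion-positive rhabdomyosarcoma (FP-RMS) cells treated with an ETS inhibitor. The members were found by exact gene symbol among the 35268 named rows of a table of normalized counts, and all 10 had a row and a mean of at least 100. The family was chosen on earlier values of the comparison of drug with DMSO in these libraries, so the members' changes in that comparison are given as a description, without a test. Rh30 is an established FP-RMS cell line, a muscle-lineage tumor line that carries the PAX3-FOXO1 fusion. For 24 hours, Rh30 cells received 1 µM of the drug, a small molecule that acts on ETS transcription factors, named YK in the deposited columns, bought as a racemic mixture and carried in DMSO. The control cells received DMSO alone. Each group had 3 libraries (replicates 1 to 3), made from mRNA of a single line, and no label ties a library to a separate culture, so that the spread between libraries may be technical.

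E2F proteins bind promoters of genes for the G1 to S transition and DNA replication, in most cases as a dimer with a DP protein. E2F1, E2F2 and E2F3 are classed as activators that the retinoblastoma protein holds back until cyclin-dependent kinases phosphorylate it, E2F4, E2F5 and E2F6 as repressors, and E2F7 and E2F8 as atypical repressors that bind DNA without DP and close S phase transcription. Several E2F genes are themselves transcribed in bursts tied to the cell cycle and are known targets of E2F.

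The promoters of the activators are shown first because the same 8-base E2F motif lies close to the start of all of them. They are followed by the promoter of E2F7, which had the largest log2 fold change in the family, and that of E2F4, whose groups overlapped. Each sequence is the 160 bases before the RefSeq start on GRCh38.p14, read 5′ to 3′ on the gene's strand. They lie at chr20:33686386-33686545 on the minus strand (E2F1), chr1:23531234-23531393 on the minus strand (E2F2), chr6:20401719-20401878 on the plus strand (E2F3, the first of 2 starts), chr12:77065570-77065729 on the minus strand (E2F7) and chr16:67191995-67192154 on the plus strand (E2F4). Capitals mark an E2F motif or a CCAAT box on either strand.
E2F1: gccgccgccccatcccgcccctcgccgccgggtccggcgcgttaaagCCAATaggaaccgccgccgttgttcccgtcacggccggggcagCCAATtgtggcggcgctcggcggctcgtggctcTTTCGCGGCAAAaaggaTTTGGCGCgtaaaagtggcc
E2F2: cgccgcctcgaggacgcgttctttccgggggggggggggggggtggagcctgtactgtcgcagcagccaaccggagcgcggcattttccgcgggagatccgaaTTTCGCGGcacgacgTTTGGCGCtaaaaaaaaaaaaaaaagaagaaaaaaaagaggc
E2F3: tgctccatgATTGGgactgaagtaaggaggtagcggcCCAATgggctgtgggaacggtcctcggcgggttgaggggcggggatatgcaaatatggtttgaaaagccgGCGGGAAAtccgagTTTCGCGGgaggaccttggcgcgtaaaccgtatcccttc
E2F7: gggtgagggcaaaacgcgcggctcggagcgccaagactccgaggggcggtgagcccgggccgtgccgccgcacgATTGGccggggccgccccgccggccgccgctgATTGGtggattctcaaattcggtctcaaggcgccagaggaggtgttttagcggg
E2F4: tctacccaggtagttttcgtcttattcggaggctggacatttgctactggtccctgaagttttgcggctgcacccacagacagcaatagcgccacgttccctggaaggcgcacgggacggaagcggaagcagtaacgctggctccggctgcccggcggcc

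The E2F motif was searched as its 8 spellings TTTCCCGC, TTTCCCGG, TTTCGCGC, TTTCGCGG, TTTGCCGC, TTTGCCGG, TTTGGCGC and TTTGGCGG on both strands, in windows from 250 bases before to 50 bases after the start. These motifs were chosen after the sequences had been seen, a match is a description of letters, and matches on the 2 strands may overlap. E2F1 held TTTCGCGG from -37 to -30, TTTGGCGC from -20 to -13, and TTTGCCGC on the opposite strand from -33 to -26, which overlaps the first and makes the run of 12 capitals. E2F2 held TTTCGCGG from -57 to -50 and TTTGGCGC from -42 to -35. The first E2F3 window held TTTCGCGG from -39 to -32 and TTTCCCGC on the opposite strand from -53 to -46. TTTCGCGG was thus present within 60 bases before the start of all 3 activators, while 0.416% of all 35116 promoter windows in the table held it.

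Windows were searched for 8 members, with 11 windows in all because E2F3 had 2 and TFDP2 had 3. E2F5 was left out of the search by choice and no window of E2F8 was at hand, so the counts cover neither. Of these 11 windows, 6 held at least 1 E2F motif and 4 held at least 2, each in a different member. Over all windows the shares were 6.19% and 0.379%, and over the windows of genes tested 9.002% and 0.601%. The motif was also found in E2F6, at -183 to -176 and at -78 to -71, in TFDP1 on the opposite strand at -120 to -113, and in the first TFDP2 window on the opposite strand at 19 to 26. No spelling was found in the windows of E2F4 and E2F7 or in the other E2F3 window. E2F7 held 4 CCAAT boxes, all on the opposite strand, and the first E2F3 window also held 4, whereas 34.6% of all windows held at least 1. The ETS-type letters CCGGAAG, searched on both strands, were found in 1 member window, that of E2F7 at -198 to -192, against 10.3% of all windows and 16.3% of those of genes tested. The cell cycle homology region letters TTTGAA were found in the first E2F3 window at -65 to -60 and in both further TFDP2 windows, against 15.2% of all windows.

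**Figure D1:**
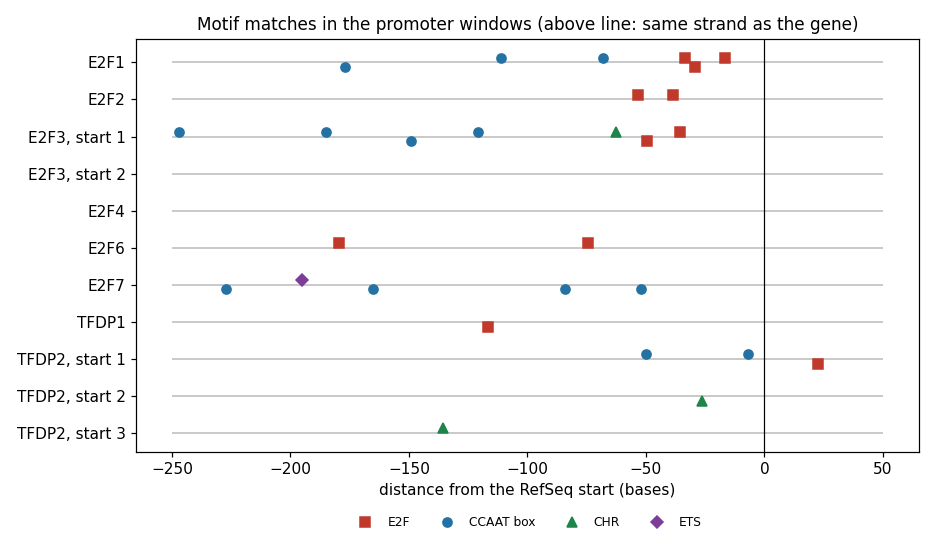
Positions of motif matches in 11 RefSeq promoter windows of 8 members, with the distance from the start in bases on the horizontal axis and matches on the gene's own strand above the line. The E2F motif (squares) lies within 60 bases before the start of E2F1, E2F2 and the first start of E2F3, and no match of it lies in the windows of E2F4 and E2F7.

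The libraries held between 16724650 and 24677433 reads on named genes, and every value was a whole number of reads times a factor of its library. DMSO replicate 1 stood apart, with 6.05% of its reads on mitochondrial genes against 4.74% to 5.03% in the other 5, and several values are therefore also given without it. All 14 FP-RMS markers, among them MYOD1, MYOG and FGFR4, were above a mean of 10. Their summed level per length was 6897 to 8073 in DMSO and 7926 to 8346 in YK libraries. A mean of at least 10 was reached by 5 of 7 endothelial markers (TEK the highest, with a mean normalized count of 204), 3 of 6 epithelial markers (EPCAM the highest, 64.6) and 1 of 6 hematopoietic markers, while ERG (endothelial), KRT5 and ESRP1 (epithelial) were at 0 in all 6 libraries. Their summed levels per length were 9.10 to 11.2 and 8.89 to 9.52 (endothelial, DMSO and YK), 9.52 to 10.3 and 9.81 to 14.4 (epithelial) and 0.597 to 1.64 and 1.53 to 2.26 (hematopoietic). The summed fibroblast markers were 68.5 to 74.0 in DMSO and 83.6 to 89.0 with the drug, with 1 of 6 called (COL1A1), and the part of these cell type markers in the results was not tested.

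All 10 members had a fold change below 0 on the scale of log2(normalized count + 1), with a median of -0.17. Over all 13930 genes tested, 52.0% were below 0 and the median was -0.01. The groups did not overlap, with the YK libraries lower, for 6 members (E2F2, E2F3, E2F6, E2F7, E2F8 and TFDP1), and for none with the YK libraries higher. This pattern was met by 15.1% of all genes tested. Nothing is read from this count, because the same contrast chose the family. In bulk RNA, fewer cells in the cycle phase that makes a transcript and less transcript per cell cannot be told apart.

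**Figure D2:**
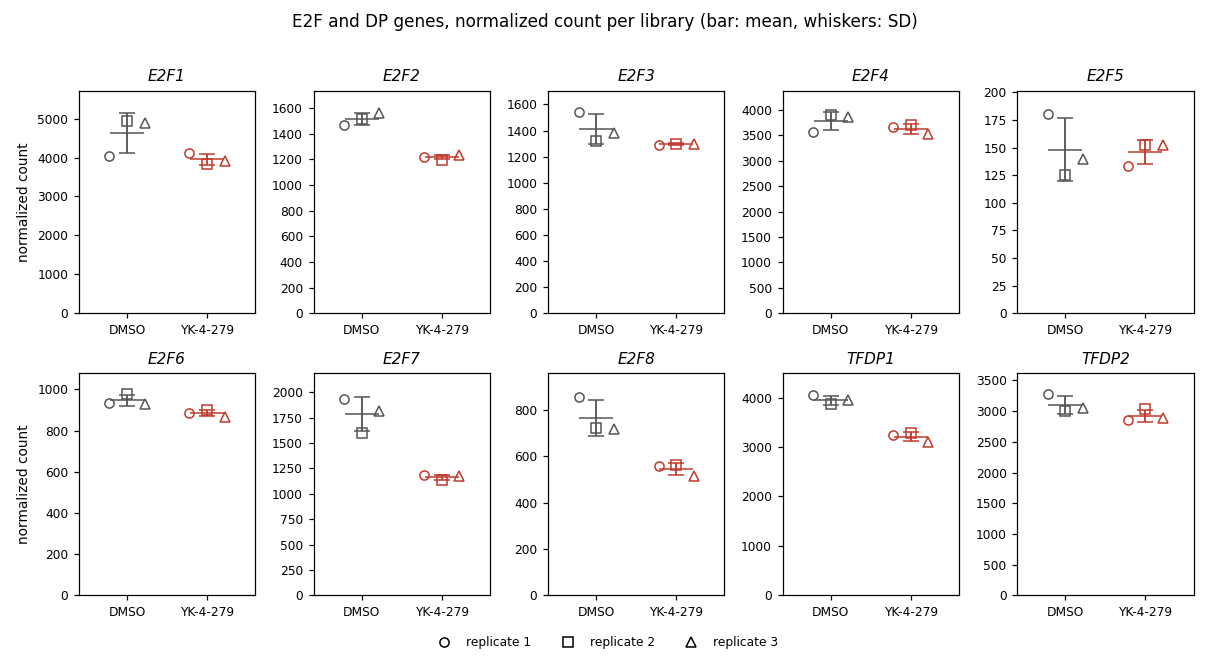
Normalized counts of the 10 members in each of 3 DMSO and 3 YK libraries, on axes that start at 0, with 1 marker shape per replicate, the mean as a bar and the SD as whiskers. E2F7 runs from 1600 to 1933 in DMSO and from 1136 to 1185 with the drug, while E2F1, E2F4, E2F5 and TFDP2 overlap between the groups.

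On the log2 scale, the atypical repressors had the largest differences in the family. E2F7 (chr12:77021248-77065569 on hg38, minus strand) had normalized counts of 1933, 1600 and 1816 in DMSO replicates 1, 2 and 3, and 1185, 1136 and 1172 with the drug. The lowest DMSO library was 415 normalized counts above the highest YK library. On the log2 scale E2F7 changed by -0.61 (standard error 0.07, 95% interval -0.77 to -0.45), or 65.5% of the DMSO level, which placed E2F7 at rank 74 from the lowest of the 13930 genes tested. E2F7 represses genes of the G1 to S wave, E2F1 among them.

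E2F8 (chr11:19224063-19241620, minus strand), the close paralog of E2F7, had 855, 720 and 717 normalized counts in DMSO and 557, 563 and 515 with the drug. The groups did not overlap, and DMSO replicate 1 was the highest library. Its change on the log2 scale was -0.48 (standard error 0.09, 95% interval -0.67 to -0.30), at rank 150 from the lowest. Without DMSO replicate 1 the change was -0.55 for E2F7 and -0.40 for E2F8. Exons of E2F8 overlap those of CSRP3-AS1 on the opposite strand. The library kit was directional, but the strand setting of the counting was not given in the sources used here.

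Among the activators, the distance between the groups differed from gene to gene. E2F1 (chr20:33675477-33686385, minus strand), which can drive both S phase entry and apoptosis, had 4040, 4943 and 4895 normalized counts in DMSO and 4116, 3825 and 3920 with the drug. The groups overlapped because of DMSO replicate 1, which lay below YK replicate 1. The log2 fold change was -0.22 (standard error 0.08, 95% interval -0.38 to -0.06), and -0.32 without DMSO replicate 1.

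E2F2 (chr1:23506438-23531233, minus strand) had 1465, 1514 and 1560 normalized counts in DMSO and 1220, 1199 and 1234 with the drug. The groups were apart by 232 normalized counts, and the coefficient of variation was 3.12% in DMSO and 1.45% with the drug. E2F2 changed by -0.31 on the log2 scale (standard error 0.06, 95% interval -0.45 to -0.18), and -0.34 without DMSO replicate 1.

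E2F3 (chr6:20401879-20493714, plus strand), whose 2 starts give a longer and a shorter protein form that gene counts cannot separate, had 1538, 1318 and 1380 normalized counts in DMSO and 1286, 1297 and 1299 with the drug. The groups were apart by only 19.4 normalized counts, with DMSO replicate 1 the highest. The log2 fold change was -0.12 (standard error 0.07, 95% interval -0.27 to 0.03), and without DMSO replicate 1 it was -0.06.

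The 3 repressors had log2 fold changes between -0.10 and -0.01, with a median of -0.06. E2F4 (chr16:67192155-67198918, plus strand), the main E2F of the DREAM complex that represses cell cycle genes in quiescence, had 3575, 3910 and 3859 normalized counts in DMSO and 3675, 3705 and 3523 with the drug. The groups overlapped, and the log2 fold change was -0.06 (95% interval -0.18 to 0.07), and -0.10 without DMSO replicate 1. With quantile normalization the sign turned, at 0.01.

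E2F5 (chr8:85177154-85217158, plus strand), the paralog of E2F4, had 180, 125 and 139 normalized counts in DMSO and 134, 152 and 152 with the drug. It rested on 125 to 167 reads per library, and its DMSO coefficient of variation of 19.4% was the highest in the family. The log2 fold change was -0.01 (95% interval -0.32 to 0.31), and 0.14 without DMSO replicate 1. Exons of E2F5 overlap those of RBIS on the opposite strand.

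E2F6 (chr2:11444375-11466177, minus strand), which acts without pocket proteins in a polycomb complex, had 933, 977 and 930 normalized counts in DMSO and 888, 898 and 868 with the drug. The groups were apart by 32.6 normalized counts. E2F6 changed on the log2 scale by -0.10 (standard error 0.07, 95% interval -0.24 to 0.05). With the trend on GC content and length removed from each library, it was -0.06.

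The DP partners, which supply the partner subunit of E2F1 to E2F6 dimers, differed from each other. TFDP1 (chr13:113584721-113641473, plus strand) had 4046, 3865 and 3941 normalized counts in DMSO and 3234, 3282 and 3104 with the drug. The groups were apart by 583 normalized counts, the widest gap in the family in counts, which grow with the level of a gene. On the log2 scale E2F7, E2F8 and E2F2 changed more than TFDP1. The log2 fold change was -0.30 (standard error 0.06, 95% interval -0.42 to -0.18), or 81.2% of the DMSO level.

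TFDP2 (chr3:141944428-142149544, minus strand) had 3272, 2994 and 3050 normalized counts in DMSO and 2847, 3027 and 2886 with the drug. YK replicate 2 lay above DMSO replicate 2, so the groups overlapped. TFDP2 changed on the log2 scale by -0.09 (standard error 0.06, 95% interval -0.22 to 0.04), and by -0.05 without DMSO replicate 1. A further DP gene in the annotation, TFDP3, had 0 reads in all 6 libraries.

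**Figure D3:**
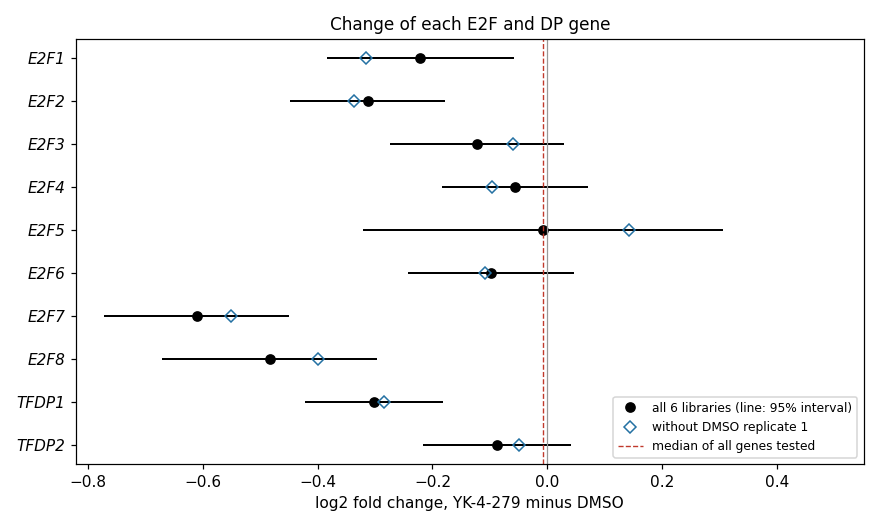
Log2 fold change of each member, drug minus DMSO, with its 95% interval from limma (lines) and the value without DMSO replicate 1 (open diamonds). E2F7 at -0.61 and E2F8 at -0.48 lie farthest from 0, and E2F5 moves from -0.01 to 0.14 when DMSO replicate 1 is left out.

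To compare the members with each other, normalized counts were divided by the length of the longest annotated transcript and scaled to the same total in every library, a level per length. In DMSO, E2F1 had a level per length of 251 ± 29.7 (SD, n = 3), TFDP1 of 219 ± 4.70 and E2F4 of 211 ± 11.8, and these neighbours overlapped. TFDP2 at 45.9 ± 1.89, E2F7 at 45.5 ± 4.26, E2F2 at 42.5 ± 1.84, E2F3 at 41.0 ± 3.05 and E2F6 at 40.1 ± 1.08 formed a middle group whose neighbours also overlapped. E2F8 at 30.1 ± 2.82 and E2F5 at 4.29 ± 0.80 were each apart from the member above. E2F1 thus exceeded 96.3% of the genes tested in level per length.

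In the drug-treated libraries the order changed in the middle. E2F7 moved from place 5 to place 8, with a level per length of 31.0 ± 1.32, below E2F3 at 39.1 ± 0.721, E2F6 at 39.0 ± 0.637 and E2F2 at 35.7 ± 1.21. E2F4 at 212 ± 5.23 came before TFDP1 at 185 ± 4.39. E2F1 at 224 ± 12.6 stayed at place 1 and overlapped E2F4, and E2F3 overlapped E2F6, while all other neighbours were apart. The order depended on which transcript length was used, since with the median annotated transcript E2F1 stood at place 4 in DMSO and E2F4 at place 1.

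**Figure D4:**
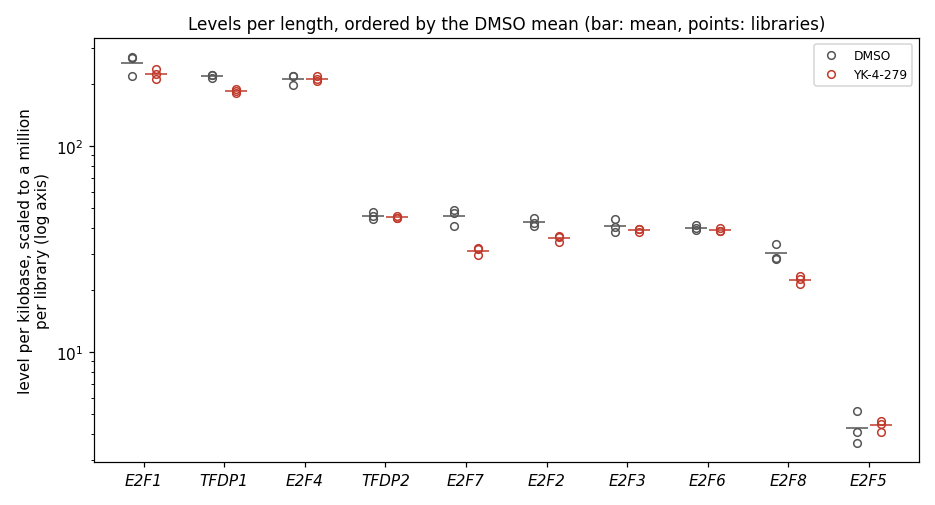
Level per length of each member on a log axis, in 3 DMSO and 3 YK libraries (points, with the mean as a bar), ordered by the DMSO mean. The levels fall into 3 ranges, E2F1, TFDP1 and E2F4 above 180, 6 members between 21.4 and 48.8, and E2F5 between 3.61 and 5.17.

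The make-up of the family, as shares of the summed level per length of E2F1 to E2F8 in a library, followed these values. The atypical share was 13.1%, 10.2% and 10.9% in DMSO replicates 1, 2 and 3, and 8.78%, 8.83% and 8.76% with the drug. The repressor share was 37.9% to 38.6% in DMSO and 41.5% to 43.0% with the drug, so both shares were apart between the groups. The activator share overlapped, at 48.2% to 51.2% in DMSO and 48.1% to 49.7% with the drug. The ratio of TFDP1 to TFDP2 was 4.63 to 4.84 in DMSO and 4.03 to 4.25 with the drug.

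Over the 6 libraries, TFDP1, E2F7 and E2F8 varied together, with Pearson correlations of log2 values of 0.972 between E2F7 and TFDP1, 0.975 between E2F8 and TFDP1 and 0.959 between E2F7 and E2F8. The points share the treatment groups and library scaling, so these values describe the libraries and no p is given. Without DMSO replicate 1 these 3 correlations were 0.963, 0.996 and 0.943. E2F1 lay nearest to E2F4, at 0.862, and had a correlation of 0.045 with E2F3, whereas without DMSO replicate 1 it lay nearest to E2F2, at 0.975, and had 0.743 with E2F3. Over all 6 libraries, among 10689 other genes with a mean of at least 100, those most like E2F7 were ZNF8 (0.998) and ZNF367 (0.997), those most like E2F8 were SETD3 (0.998) and NCAPD3 (0.997), and those most like TFDP1 were MDFIC and CDK5RAP2 (both 0.996). The genes most like E2F1 were PTK7 and PLCB3, those most like E2F2 were CHRNA5 and ZNF672, those most like E2F3 were NFIB and RAD18, and those most like E2F4 were TBC1D16 and TM7SF3. For E2F5 they were SC5D and NEXN, for E2F6 SAYSD1 and SF3B4, and for TFDP2 FARSB and API5, and the lowest of all these correlations was that of SF3B4, at 0.989.

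Genes that E2F proteins are known to control were examined next, in a list of 74 replication, repair and G1 to S genes. This list and those below were chosen with earlier results of these data known, so their counts are a description and not independent support. All 74 were tested and all 74 had a log2 fold change below 0, from -0.57 to -0.07 with a median of -0.29, beside the median of -0.01 over all genes. Of these, 45 fell and 29 did not pass the test (limma, Benjamini-Hochberg adjusted p under 0.05), and none rose, against 2.15% of all genes called lower. The groups did not overlap, with the YK libraries lower, for 67 of the 74, beside 15.1% of all genes tested. Without DMSO replicate 1, 64 were called lower, where 8.46% of all genes were. The number called was 24 without DMSO replicate 3, 1 without YK replicate 1, 1 without YK replicate 2 and 2 without YK replicate 3, where 1.02%, 0.0287%, 0.0503% and 0.129% of all genes were called lower, while 73 or 74 stayed below 0 in each of these fits.

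RRM2, the small subunit of ribonucleotide reductase and the list's gene with the highest mean, had 15668, 14944 and 14858 normalized counts in DMSO and 10294, 10854 and 10660 with the drug (a change of -0.52 on the log2 scale, limma adjusted p = 3.7e-04). It passed the test whichever library was left out, with a highest adjusted p of 0.017 from limma. TYMS, which makes thymidylate, fell by 0.57 on the log2 scale (limma adjusted p = 0.015). CCNE2, a cyclin that activates CDK2 at the G1 to S transition, fell by 0.53 (limma adjusted p = 0.011), and RAD51AP1, a homologous recombination factor, fell by 0.52 (limma adjusted p = 0.0072). CCNE1, the paralog of CCNE2, had 1319, 1361 and 1362 normalized counts in DMSO and 1009, 1061 and 1142 with the drug, a change of -0.33 (limma adjusted p = 0.020). CCNE1 did not pass with the replicate block (limma adjusted p = 0.059), with quantile normalization (0.054), without DMSO replicate 3 (0.073) or without any 1 of the YK replicates (0.066 to 0.17). TYMS, CCNE2 and RAD51AP1 did not pass without any 1 of the YK replicates (limma adjusted p between 0.054 and 0.12).

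The 6 subunits of the replicative helicase were chosen after their values were seen. MCM6 at -0.27, MCM4 at -0.24 and MCM3 at -0.23 fell (limma adjusted p = 0.023, 0.028 and 0.036), and MCM7 at -0.21, MCM2 at -0.11 and MCM5 at -0.10 did not pass the test (limma adjusted p = 0.084, 0.40 and 0.41). DMSO replicate 1 was the lowest DMSO library for MCM7, at 10067 normalized counts against 11458 and 11394, and also for MCM2 and MCM5. Without it, MCM7 at -0.27, MCM2 at -0.16 and MCM5 at -0.14 passed as well (limma adjusted p = 1.4e-06, 0.0047 and 0.014), so that all 6 were called, where 8.46% of all genes were called lower. With GC content and length trends removed, all 6 also passed (limma adjusted p from 3.4e-04 to 0.036), where 6.65% of all genes were called lower. They passed with the replicate block added to that (9.1e-04 to 0.049). MCM3, MCM4 and MCM6 did not pass with the replicate block alone (limma adjusted p = 0.10, 0.084 and 0.073). No subunit passed with quantile normalization (limma adjusted p from 0.065 to 0.81), without DMSO replicate 3 or without any 1 of the YK replicates (0.073 to 0.73). MCM3 did not pass with TMM scaling (0.0502) or without DMSO replicate 2 (0.053).

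The members differed in how many of these 74 genes followed them over the 6 libraries. A correlation over 0.9 was found for 47 of the 74 with TFDP1, 43 with E2F7, 42 with E2F8 and 30 with E2F2. The shares of the 10689 genes that reached it were 5.63% for TFDP1, 6.13% for E2F7, 8.12% for E2F8 and 3.25% for E2F2. Fewer of the 74 did so with E2F3 (13), TFDP2 (10), E2F6 (8), E2F1 (7), E2F4 (2) and E2F5 (0). The shares of the 10689 genes were 11.2% for E2F3, 8.93% for TFDP2, 1.86% for E2F6, 2.23% for E2F1, 2.09% for E2F4 and 3.21% for E2F5. These counts depended on DMSO replicate 1. Without it, 57 of the 74 reached a correlation over 0.9 with TFDP1, 56 with E2F2, 53 with E2F8, 50 with E2F7, 47 with E2F1, 21 with E2F6, 18 with E2F4, 3 with E2F3, 2 with TFDP2 and 0 with E2F5. The shares of the 10689 genes in these 5 libraries were 10.8% for TFDP1, 10.6% for E2F2, 10.7% for E2F8, 9.12% for E2F7, 9.36% for E2F1, 7.87% for E2F6, 7.46% for E2F4, 3.06% for E2F3, 3.46% for TFDP2 and 2.20% for E2F5. All of these values share the treatment groups and are a description. In the promoter table, 62 of the 74 genes had 88 windows, of which 42.0% held the E2F motif and 55.7% a CCAAT box.

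G2/M genes form the later wave, driven by FOXM1 and MYBL2. Of 36 tested, 32 were below 0 and the median was -0.20. In all, 10 fell, none rose and 26 did not pass the test (limma adjusted p under 0.05), against 2.15% of all genes called lower. TOP2A, the DNA topoisomerase of mitotic chromosomes, went from 24740, 20775 and 20893 normalized counts in DMSO to 15331, 16510 and 16523 with the drug (log2 fold change -0.45, limma adjusted p = 0.0063). CDK1, the mitotic kinase, and CDCA3, which triggers the degradation of WEE1, fell by 0.46 and 0.42 (limma adjusted p = 0.0074 for both). Without DMSO replicate 1 the median was -0.12 and 17 were called, where 8.46% of all genes were called lower, and without YK replicate 1, 2 or 3 the number called was 0, 0 and 2, where 0.0287%, 0.0503% and 0.129% of all genes were called lower.

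**Figure D5:**
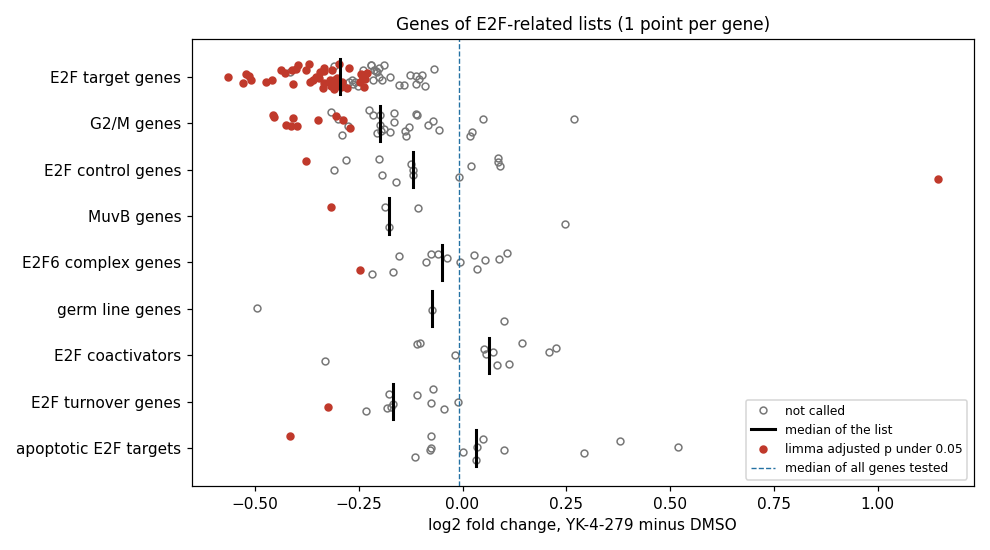
Log2 fold change, drug minus DMSO, of every tested gene in 9 E2F-related lists (points, filled where the limma adjusted p is under 0.05), with the median of each list as a black bar and that of all genes as a dashed line. All 74 E2F target genes lie below 0, and the single filled point above 0 is CDKN2B at 1.15.

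Genes that set E2F activity, such as G1 kinases and their inhibitors, were examined as control genes. Of 15 tested, 10 were below 0, 1 fell and 1 rose (limma adjusted p under 0.05), against 2.15% of all genes called lower and 1.26% called higher. CDKN2B, an inhibitor of CDK4 and CDK6, had 78.2, 90.9 and 78.5 normalized counts in DMSO and 195, 177 and 178 with the drug, a change of 1.15 on the log2 scale (limma adjusted p = 7.5e-04, standard error 0.13). With any 1 library left out its change was 1.1 to 1.22 and its highest limma adjusted p was 0.019. CDK2, which phosphorylates pocket proteins, fell by 0.38 (limma adjusted p = 0.012, and 0.082 to 0.11 without any 1 of the YK replicates). CDK4, the gene of the list with the highest mean, had a change of -0.12 with overlapping groups (limma adjusted p = 0.32). The overlap rested on DMSO replicate 1, at 46488 normalized counts against 53432 and 52004 in the other DMSO libraries, and without it CDK4 passed the test at -0.18 (limma adjusted p = 0.0031). The number called was 9 without DMSO replicate 1, 4 without DMSO replicate 2 and 1 without any 1 of the YK replicates. The shares of all genes called in those fits were 13.1%, 4.85% and between 0.136% and 0.330%, against 3.41% with all 6 libraries.

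The pocket proteins, which bind and restrain the E2Fs, did not pass the test with all 6 libraries although their groups did not overlap. RB1, the partner of the activators, had 2774, 2162 and 2319 normalized counts in DMSO and 1854, 2077 and 2015 with the drug, a log2 fold change of -0.28 (limma adjusted p = 0.090). RBL1 had a change of -0.31 (limma adjusted p = 0.064) and RBL2, the main partner of E2F4 in quiescence, of -0.19 (limma adjusted p = 0.16). DMSO replicate 1 was the highest library for all 3. Without it, RB1 at -0.18 (limma adjusted p = 0.0087) and RBL1 at -0.21 (limma adjusted p = 0.0033) passed the test, and RBL2 at -0.13 did not (limma adjusted p = 0.066). RB1 and RBL1 also passed without DMSO replicate 2 (limma adjusted p = 0.023 and 0.016). With GC content and length trends removed, all 3 passed (limma adjusted p = 0.018 for RB1, 0.0061 for RBL1 and 0.048 for RBL2), but RBL2 did not when the replicate block was added (limma adjusted p = 0.057). DESeq2 called RBL1 (adjusted p = 0.026) and not RB1 (adjusted p = 0.052), and edgeR called neither. RB1 and RBL1 did not pass without DMSO replicate 3 (limma adjusted p = 0.12 and 0.099), without any 1 of the YK replicates (limma adjusted p between 0.18 and 0.39) or with the replicate block alone (limma adjusted p = 0.16 and 0.11).

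Partners and modifiers of the E2F proteins were called at most singly in each list. Over all genes tested, 2.15% were called lower and 52.0% were below 0. In the MuvB core, which joins E2F4 or E2F5 with a DP and a pocket protein in the DREAM complex, 1 of 5 genes fell, the histone-binding RBBP4 at -0.32 (limma adjusted p = 0.013). Of 14 genes listed as polycomb partners of E2F6, not all of them subunits of its own complex, 9 were below 0 and 1 fell. This was the histone methyltransferase EZH2 at -0.25 (limma adjusted p = 0.046), which is also on the E2F target list. EZH2 was not called with TMM scaling (limma adjusted p = 0.058), quantile normalization or the replicate block (limma adjusted p = 0.10 for both), by edgeR (adjusted p = 0.055) or without DMSO replicate 3 (limma adjusted p = 0.090). CBX3, the gene of highest mean there, had -0.15 (limma adjusted p = 0.21). Of 11 turnover genes, for ubiquitin ligases and deubiquitinases that act on E2F proteins, all 11 were below 0 and 1 fell, CCNF at -0.32 (limma adjusted p = 0.013, and 0.051 with the replicate block), while SKP2 had -0.18 (limma adjusted p = 0.12). RBBP4 and CBX3 have processed pseudogenes, with which they can share reads.

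Of 12 genes listed as coactivators, for acetyltransferases and other cofactors of E2Fs, none was called by limma. Their median was 0.06 and 4 were below 0. Not all of the 12 are coactivators, so this median mixes genes of different roles. TRIM28, the gene of highest mean there and not itself a coactivator, had a change of -0.11 (limma adjusted p = 0.28). Of 14 germ line genes that E2F6 is described as silencing, 11 were too low to test, and none of the other 3 was called, with STAG3 at 0.10 (limma adjusted p = 0.73). Among 13 tested apoptosis genes described as E2F1 targets, 8 were above 0 and 1 fell, the p53 relative TP73 at -0.42 (limma adjusted p = 0.012). MCL1, with the highest mean of that list, was at 0.03 (limma adjusted p = 0.78). In these 6 lists together, 4 genes were called, against 3.41% of all genes in either direction. Without DMSO replicate 1, 16 were called against 13.1% of all genes, among them SKP2 and TRIM28, both at -0.12 (limma adjusted p = 0.033 and 0.032), and without any 1 of the YK replicates 0 were.

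The annotation names 13 other genes after the family, of which 3 had a row. The intronic E2F3-IT1 and the divergent E2F5-DT had at most 4 reads per library. The 10 without a row are processed pseudogenes of E2F3, E2F4, E2F6 and TFDP1, and reads from these 4 genes that also align to a pseudogene can be lost or shared in counting.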

How the data were processed

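RNA was sequenced from Rh30 cells after 24 hours in 1 µM of the drug (YK) or DMSO, with 3 libraries per group. After trimming with BBDuk, the authors used STAR 2.7.9a for alignment to hg38 and for gene counts, and deposited a normalized signal for each gene, in which a library's reads are scaled by 1 size factor. Dividing by the value of 1 read gave whole reads for 100% of the values (tolerance 0.001). A single unnamed row was dropped. The authors' own test was DESeq2. Because normalized values were deposited, limma 3.58.1 in R 4.3.3 (lmFit, eBayes with trend, two-sided) was used on log2(normalized count + 1) for 13930 genes with a mean of at least 10, with Benjamini-Hochberg adjustment and a call at an adjusted p under 0.05. Fold changes are on that scale, which understates those of low genes.

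The members and gene lists were chosen with earlier results of these data known. Genes named were all members, in each list the gene of highest mean and the 3 largest changes among genes called with no overlap and a mean of 100 or more, RB1, RBL1, RBL2, CCNE1, CCNE2, other genes named after the family, and the 2 genes most correlated with each member. MCM2 to MCM7 were added after their values were seen, as was the repeat of the correlations without DMSO replicate 1. Positions and lengths are from GENCODE on hg38 (98.5% of genes tested had a length), and promoters from RefSeq on GRCh38.p14. The alternatives were other pseudocounts, filters, scalings, lengths, eBayes without trend, a replicate block, removal of GC content and length trends, leaving out each library, and fits of the recovered reads in edgeR 4.0.16 and DESeq2 1.42.0. The code was tested on simulated data.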

Additional observations from a re-analysis of the deposited data

How the results depend on the processing

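Of the 18 alternatives, the 2 filters, eBayes without trend and the replicate block alone cannot change a member's fold change. In the other 14, E2F1, E2F3, E2F7, E2F8 and TFDP2 stayed below 0 and moved by less than the spread between replicates, with E2F7 between -0.69 and -0.55 and E2F8 between -0.53 and -0.40, and E2F5 was below 0 in 8 of the 14. With quantile normalization, 277 genes were called in all (47.7% of them higher, against 37.1%), with 24 E2F target genes and 6 G2/M genes, and the log2 fold changes of E2F2, E2F4 and TFDP1 were -0.265, 0.010 and -0.237. Without the trend in eBayes, 33 genes were called, with 1 E2F target gene, 0 G2/M genes, 1 control gene and 0 in the other 6 lists. With GC content and length trends removed, 1522 genes were called, with 19 G2/M genes, 7 control genes and 10 in the other lists, E2F2 at -0.349 and E2F6 at -0.057, and with the replicate block added these counts were 1418, 18, 6 and 9, with the same 2 changes of -0.349 and -0.057. The replicate block alone gave 180 genes, 18 E2F target genes, 6 G2/M genes and 2 in the other lists. Deviations of same-numbered libraries from their group means had correlations of -0.10, -0.03 and -0.03, so no shared deviation was seen. With 3 libraries per group this cannot tell whether same-numbered libraries were handled together. Leaving out 1 library at a time gave 19 to 1823 genes, 1 to 64 E2F target genes, 0 to 17 G2/M genes, 1 to 9 control genes and 0 to 16 in the other lists. Of the list genes described as changed, RRM2 and CDKN2B passed in all 18 alternatives, and each of the others lost its call without YK replicate 1, without YK replicate 2 and without the trend in eBayes. The cause of these shifts was not tested. edgeR called 465 genes and DESeq2 623, with 41 and 48 E2F target genes. Of the 10 places in the order of levels, 6 stayed with the length of the exon union and 5 with the median transcript, and 4 stayed within DMSO replicate 1 alone, within DMSO replicate 2 alone and within each YK library alone. E2F5, with the fewest reads of the members, had the widest interval, and a change within it was not detectable here.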
